A study of Mus musculus with 2 samples.

Results

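The genes of fatty acid and triglyceride synthesis were described in gastrocnemius, the large muscle of the calf, in 2 RNA libraries from adult female mice. The 10 genes are Acly, Acaca, Acacb, Fasn, Scd1, Me1, Thrsp, Gpam, Dgat2 and Srebf1. They were chosen by symbol, and all 10 were found among the 55536 genes of the deposited tables. Both libraries belong to the same group. Per the labels, the mice were females aged 8 to 10 months from a cross of 5xFAD and CAST. 5xFAD is a transgenic mouse line for the study of Alzheimer's disease, in which mutated human transgenes are driven by the Thy1 promoter, which is mainly active in neurons. CAST is a wild-derived inbred strain. The labels do not give the transgene status of the single mice. Since the labels give a single group, levels in the muscle and their spread over the libraries are described, with no comparison of conditions and no test. The tissue samples carry separate biological replicate numbers but 1 shared donor identifier, which does not settle whether they came from separate animals, so the spread may be technical.

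In fatty acid synthesis, citrate leaves the mitochondrion and is cleaved to acetyl-CoA, which is carboxylated to malonyl-CoA and built into palmitate by a single large enzyme that consumes NADPH. Desaturation of the product and its stepwise attachment to glycerol phosphate then yield triglyceride. Liver and fat are the tissues known for high rates of this pathway. In muscle, malonyl-CoA is known mainly as the inhibitor of carnitine palmitoyltransferase, the gate through which fatty acids enter mitochondria for oxidation, and muscle fibres store triglyceride as droplets beside their mitochondria.

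Library 1 held 35594289 expected counts and library 2 held 34541905. Expected counts are estimates of reads per gene in which reads that match several genes are shared out, and TPM is the level of a gene relative to all transcripts of the library after division by length. Markers of fast muscle fibre were abundant: Acta1, skeletal actin, stood at 17000 and 19000 TPM, and Myh4, the myosin heavy chain of the fastest fibres, at 10600 and 12300 TPM. Markers of other cells were also present. Of 16 fat cell markers 13 reached 1 TPM in both libraries, but several of these, such as Lpl and Pnpla2, are also made by muscle. Cfd, adipsin of fat cells, had 96.1 and 89 TPM, and Fabp4, a fatty acid carrier of fat and endothelial cells, had 61.7 and 79.2 TPM. Of 8 endothelial markers 8 reached it, of 8 Schwann cell markers 6, of 8 macrophage markers 5 and of 8 skin and sebaceous gland markers 1. That 1 was Mc5r, at 1.82 and 2.37 TPM, and 6 of the 8 skin and gland markers were below 1 TPM in both libraries. In bulk tissue, fewer cells of a type and less RNA per cell cannot be told apart. Library 1 also held counts of several liver markers that had few or no counts in library 2. Alb, serum albumin of the liver, had 254 counts in library 1 and 0 in library 2. It was at least 82.8-fold higher in library 1 when library 2 is set to a floor of 3 counts. Tat had 15 and 0 counts, Serpina1c 17 and 0, Apoa1 35 and 1 and Ttr 17 and 1. The source of these counts was not tested. Cyp2e1, a further gene of that list, had 557 counts in library 1 and 488 in library 2.

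All 10 genes reached a TPM of 1 in both libraries. Together they held 226 TPM in library 1 and 274 TPM in library 2 (250 ± 34.2; all ± are SD over n = 2 libraries). That was 0.0577% and 0.0615% of the TPM of nuclear protein-coding genes. The highest 3, Me1, Acacb and Gpam, held 78.1% of the summed level in library 1 and 73.4% in library 2. The order by mean level was Me1, Acacb, Gpam, Dgat2, Srebf1, Scd1, Thrsp, Acaca, Fasn and Acly. Acacb and Gpam, Gpam and Dgat2, and Srebf1 and Scd1 were neighbours whose values in the libraries did not overlap. Every other pair of neighbours overlapped. Within each library the order was nevertheless the same for Dgat2 above Srebf1 and for Thrsp, Acaca, Fasn and Acly from high to low. Me1 and Acacb changed places between the libraries, and Scd1 stood below Acaca in library 1 and above Thrsp in library 2. The same 3 genes led in the estimates of the second quantifier, a separate set of deposited tables made straight from the reads.

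**Figure D1:**
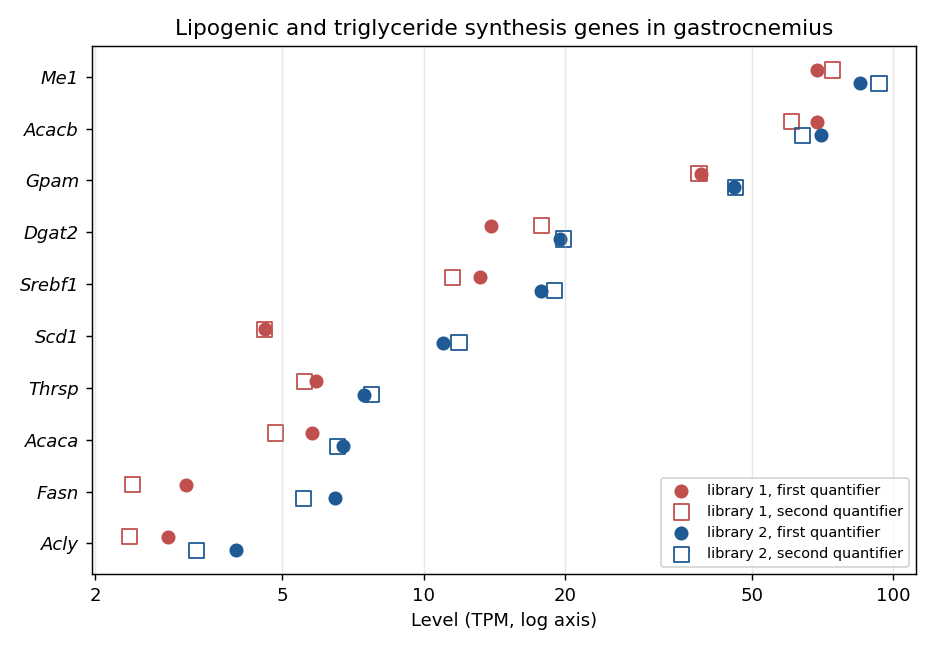
Level of each of the 10 genes in TPM on a log axis, red for library 1 and blue for library 2, with filled circles for the first quantifier and open squares for the second. Me1, Acacb and Gpam lie between 38.6 and 93.3 TPM, Dgat2 and Srebf1 between 11.5 and 19.9 TPM, and the other 5 genes lie at or below 11.9 TPM, with Scd1 at 4.59 and 11 TPM by the first quantifier.

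Acly, which cleaves cytosolic citrate to acetyl-CoA, had the lowest mean level of the 10. The gene lies on mm10 chr11:100476353-100528000, minus strand. It stood at 2.85 TPM in library 1 and 3.99 TPM in library 2 (3.42 ± 0.806), from 323 and 361 expected counts. By mean TPM, 24.8% of the 9793 nuclear protein-coding genes detected in both libraries lay below it. Slc25a1, the carrier that exports citrate from mitochondria, stood lower still, at 1.84 and 1.58 TPM. Cs, citrate synthase of the Krebs cycle, stood at 183 and 213 TPM.

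The acetyl-CoA carboxylases stood far apart. Acacb, the isozyme tethered to the outer mitochondrial membrane whose malonyl-CoA is known to restrain fatty acid oxidation, lies on chr5:114146535-114250761, plus strand. It had 68.9 TPM in library 1 and 70.3 TPM in library 2 (69.6 ± 0.976), from 17662 and 15502 expected counts. Acaca, the cytosolic isozyme that feeds fatty acid synthesis, lies on chr11:84129672-84401651, plus strand. It had 5.78 and 6.72 TPM (6.25 ± 0.665), from 769.19 and 797.2 expected counts. Acacb therefore held 92.3% of the family's summed TPM in library 1 and 91.3% in library 2, and its level was 11.9 and 10.5 times that of Acaca. Of nuclear protein-coding genes detected in both libraries, 92.8% lay below Acacb and 42.4% below Acaca.

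Cpt1b, the muscle isoform of carnitine palmitoyltransferase that malonyl-CoA inhibits, had 82.3 and 89.3 TPM, 1.19 and 1.27 times the level of Acacb. The other genes around malonyl-CoA in oxidation stood lower than Acacb. Cpt1a, the isoform typical of liver, had 2.88 and 2.83 TPM. Mlycd, which breaks malonyl-CoA down, had 45.9 TPM in library 1 and 36.3 TPM in library 2. Cpt2, the inner-membrane enzyme of the same shuttle, had 18.4 and 24.1 TPM, and Cpt1c stayed near 0.5 TPM.

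Fasn, the synthase that turns malonyl-CoA into palmitate, lies on chr11:120805846-120824547, minus strand. It had 3.12 TPM in library 1 and 6.48 TPM in library 2 (4.8 ± 2.38), from 698 and 1123 expected counts. The level of Acacb was 22.1 times that of Fasn in library 1 and 10.8 times in library 2. Of nuclear protein-coding genes detected in both, 34.5% lay below Fasn. Mcat and Oxsm, a transacylase and a ketoacyl synthase of the separate mitochondrial pathway of fatty acid synthesis, had 8.44 and 9.4 TPM and 4.45 and 5.39 TPM.

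Scd1, the desaturase that turns stearate into oleate, lies on chr19:44394455-44407879, minus strand. It had 4.59 TPM in library 1 and 11 TPM in library 2 (7.78 ± 4.51), from 659.92 and 1104.7 expected counts. Its paralog Scd2 had 2.58 and 3.0 TPM, and Scd3 and Scd4 had at most 0.14 TPM in either library. Scd1 held 63.6% of the desaturase TPM in library 1 and 77.5% in library 2 (70.5 ± 9.87), the widest spread of the 7 family shares. Elovl6, the elongase that acts on palmitate, had 0.09 and 0.19 TPM, from 16 and 30 counts. Of the 18 genes of elongation and desaturation, 10 reached 1 TPM in both libraries, led by Tecr at 179 and 220 TPM and Hacd1 at 22.4 and 26.5 TPM, both enzymes of the elongation cycle.

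Me1, the cytosolic malic enzyme that yields NADPH, had the highest mean level of the 10. It lies on chr9:86581371-86695953, minus strand. It had 68.7 TPM in library 1 and 85.1 TPM in library 2 (76.9 ± 11.6), from 6115.18 and 6668.69 expected counts, and 93.4% of nuclear protein-coding genes detected in both lay below it. G6pdx, the enzyme that opens the pentose phosphate route to NADPH, had 1.56 and 1.33 TPM, so that Me1 stood 44.1 and 64 times higher. Pgd, the other NADPH-yielding enzyme of that route, had 6.38 and 6.37 TPM. Within the malic enzymes, Me1 held 60% of the TPM in library 1 and 61.8% in library 2 (60.9 ± 1.3). The mitochondrial enzyme Me3 had 45 and 51.5 TPM, and Me2 stayed under 1 TPM.

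Thrsp, a small nuclear and cytosolic protein that is induced by thyroid hormone and carbohydrate and acts with the carboxylases, lies on chr7:97412938-97417730, minus strand. It had 5.89 TPM in library 1 and 7.45 TPM in library 2 (6.67 ± 1.1), from 211 and 231 expected counts, the fewest counts of the 10 genes. Its paralog Mid1ip1, which promotes polymerization of the carboxylases, had 11.8 and 18.8 TPM. Thrsp held 33.4% of the TPM of this pair in library 1 and 28.3% in library 2 (30.9 ± 3.57). Of the 7 families, this was the only family in which no gene of the 10 had the highest level, in both libraries and with either quantifier.

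Gpam, the mitochondrial glycerol-phosphate acyltransferase that adds the first fatty acid to glycerol phosphate, lies on chr19:55067268-55127238, minus strand. It had 38.9 TPM in library 1 and 45.9 TPM in library 2 (42.4 ± 4.98), from 6932 and 6803 expected counts. Gpam held 67% of its family's TPM in library 1 and 70.5% in library 2 (68.7 ± 2.42). Gpat4, an isozyme of the endoplasmic reticulum, had 16.9 and 16.8 TPM, Gpat3 had 2.18 and 2.42 TPM, and Gpat2 had 2 counts in library 1 and 0 in library 2.

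Dgat2, which adds the last fatty acid to diacylglycerol, lies on chr7:99153658-99182719, minus strand. It had 13.9 TPM in library 1 and 19.5 TPM in library 2 (16.7 ± 3.96), from 903 and 1093 expected counts. Dgat1, an unrelated enzyme with the same reaction, had 4.97 and 4.55 TPM, so Dgat2 held 73.7% of the pair's TPM in library 1 and 81.1% in library 2 (77.4 ± 5.24). Gpam stood 2.79 and 2.35 times higher than Dgat2. Of 19 other genes of glycerolipid synthesis, 12 reached 1 TPM in both libraries. The steps between Gpam and Dgat2 were led by Lpin1, the phosphatidate phosphatase of muscle, at 126 and 121 TPM, and by the acyltransferases Agpat3 at 45.6 and 47.8 TPM and Agpat1 at 33.4 and 38.7 TPM. Acsl1, which activates fatty acids with CoA, had 100 and 99.6 TPM, and Gpd1, which makes glycerol phosphate, had 166 and 221 TPM.

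Srebf1, which encodes the membrane-bound SREBP-1 factors that drive transcription of fatty acid synthesis genes, lies on chr11:60199089-60222581, minus strand. It had 13.2 TPM in library 1 and 17.8 TPM in library 2 (15.5 ± 3.23), from 1017 and 1039 expected counts. Srebf2, the paralog best known for cholesterol synthesis genes, had 4.3 and 4.64 TPM, and Srebf1 held 75.5% and 79.3% of the pair's TPM (77.4 ± 2.72). All 15 other regulators on the list reached 1 TPM in both libraries. Among them, Mlxipl, the carbohydrate-responsive factor ChREBP, had 27.6 and 28.3 TPM, and Mlxip, its paralog known from muscle, had 23.2 and 26.9 TPM. Insig2, which holds SREBP in the endoplasmic reticulum, had 26.1 and 27.6 TPM, and Usf2, a factor that binds E-boxes of lipogenic promoters, had 28.2 and 34.2 TPM. Of 20 cholesterol synthesis genes, 14 reached 1 TPM in both libraries, led by Fdft1 at 37.4 and 36.9 TPM.

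**Figure D2:**
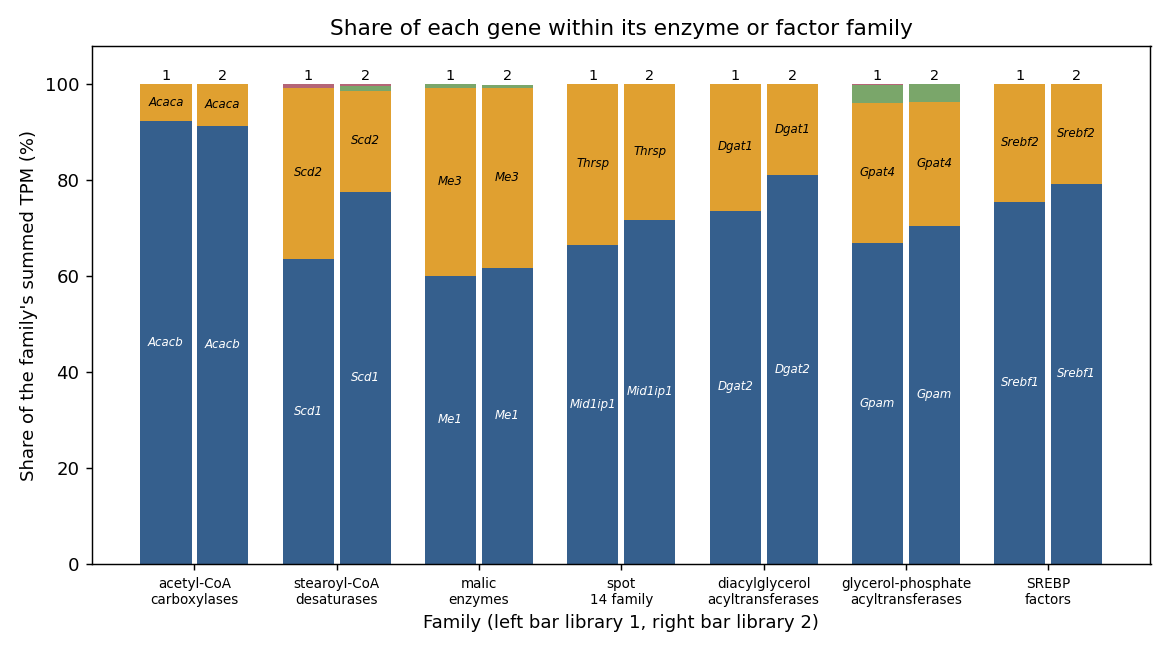
Share of each gene in the summed TPM of its family in percent, as stacked bars with library 1 on the left and library 2 on the right of each pair. Acacb fills 92.3% and 91.3% of the carboxylase bars, Scd1 fills 63.6% and 77.5% of the desaturase bars, and Thrsp is the smaller segment beside Mid1ip1 at 33.4% and 28.3%; green and red segments are the remaining family members.

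The level of a gene is the sum over its annotated transcripts, and the 10 genes differed in how far 1 transcript accounted for it. By the first quantifier, Thrsp-201 held 99.3% and 98.9% of its gene's TPM, Dgat2-201 held 98.2% and 97.9%, and Acacb-202 held 95.4% and 94.8%. The second quantifier gave Dgat2-201 73.7% in library 1 and 95.8% in library 2, and Acacb-202 86.9% and 82.6%. Me1-201 held 88.3% in library 1 and 90.8% in library 2 by the first quantifier. The rest was nearly all Me1-204, a transcript of 1055 bases with no coding frame in the annotation. Me1-204 held 11.7% and 8.94% of the TPM, from 233.19 and 191.03 counts. By the second quantifier it held 31% and 26.8%, from 735 and 675 counts, and Me1-201 held 68.8% and 72.7%. Gpam-202 held 93.9% in library 1 and 85.9% in library 2 by the first quantifier, and 74.1% and 70.8% by the second. Acaca, Acly, Fasn and Srebf1 had no transcript above 50.8% of the gene's TPM in either library by the first quantifier. For Acaca, short transcripts weighed heavily in TPM: Acaca-201, of 9026 bases, had 88.5% and 79.5% of the counts but 43.4% and 40.2% of the TPM. Acaca-203, of 1058 bases, had 46.51 and 39.71 counts and 27.7% and 23.5% of the TPM. Acaca-206, of 431 bases, had 13.86 and 12.9 counts and 23.9% and 22% of the TPM, and was listed at 0 by the second quantifier in both libraries. Short transcripts weighed heavily there too. Acaca-205, of 452 bases and at 0 by the first quantifier, held 25% and 37% by the second, from 10.5 and 17.6 counts. Acaca-203 held 20.9% and 14.2% by the second quantifier. For Acly, the long Acly-203 and Acly-201 shared the gene, with 44.7% and 36.7% and with 36.3% and 38.2% of the TPM, and the short Acly-204 had 9.86% and 12.8% from 5.78 and 9.07 counts. With the leading transcript of each gene alone, Acacb held 96.3% of the carboxylase TPM in library 1 and 96.1% in library 2.

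Short transcripts also bore on Scd1 and Srebf1. Scd1-202, of 329 bases, had 0 counts in library 1 and 13.24 in library 2, where it held 20.1% of the gene's TPM. Scd1-201 alone had 4.59 TPM in library 1 and 8.77 TPM in library 2. Srebf1-201 had 639.76 and 563.99 counts and 37.9% and 28.7% of the gene's TPM. Srebf1-204, of 367 bases and without a coding frame in the annotation, had 12.56 counts in library 1 and 29.83 in library 2, with 11.7% and 23.9% of the TPM. Srebf1-207 had 121.49 and 232.46 counts by the first quantifier, but 268 and 271 by the second. Srebf1-210, of 662 bases and without a coding frame in the annotation, had 29.75 and 44.92 counts and 13.2% and 17.1% of the TPM. By the second quantifier Srebf1-210 held 26% and 31.1% of the TPM and Srebf1-201 held 29.4% and 25%, so Srebf1-210 was the higher in library 2. The rest of Srebf1 was split, by the first quantifier, over Srebf1-203 and transcripts under 10% of the TPM in both libraries.

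**Figure D3:**
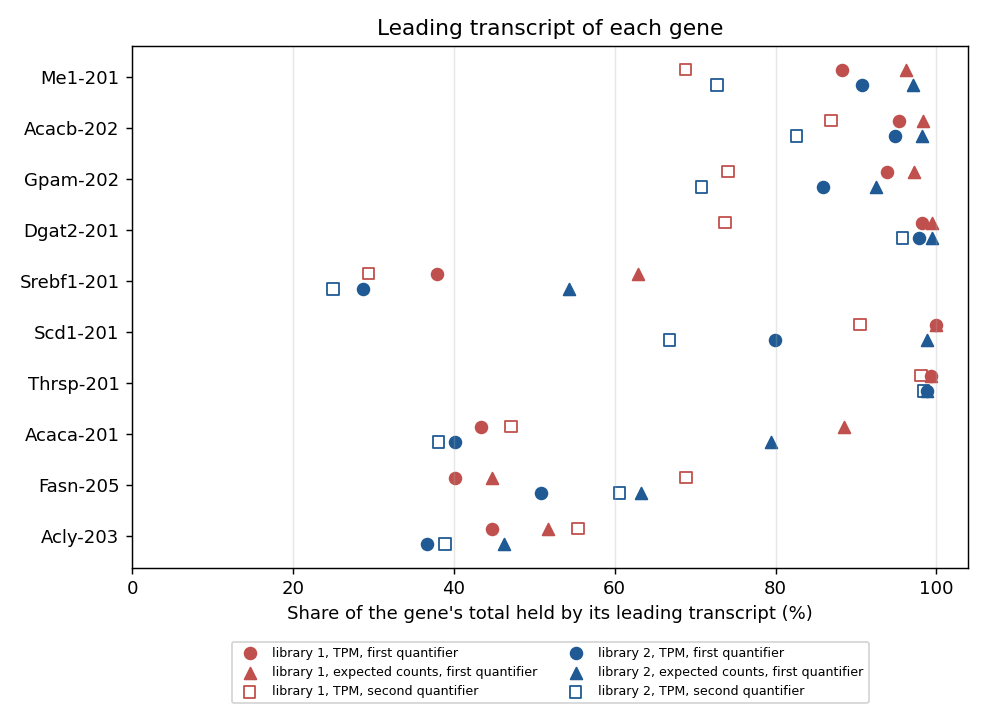
Percent of each gene's total held by its leading transcript, with circles for TPM and triangles for expected counts of the first quantifier, squares for TPM of the second quantifier, red for library 1 and blue for library 2. Thrsp-201 stays above 98% in all 6 values, whereas Acaca-201 lies at 43.4% and 40.2% of TPM but at 88.5% and 79.5% of counts.

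RefSeq promoter windows of 300 bases on mm10 (GRCm38.p6), from 250 bases before to 50 after a start, were available for 8 of the 10 genes, 12 windows in all. Where a gene had several windows, the share of TPM of the transcripts starting within 200 bases of each is given as the share of that start. It is not a share of reads, because TPM is divided by length. Srebf1 is known to make SREBP-1a and SREBP-1c from separate first exons, and its 3 windows are printed because no start held more than 37.9% of the TPM. By expected counts the start of Srebf1-201, at 60220627, led with 62.9% in library 1 and 54.3% in library 2. The start at 60222581, in chr11:60222532-60222831, had 11.7% of the gene's TPM in library 1 and 23.9% in library 2. All of it came from the short Srebf1-204, which had 1.24% and 2.87% of the counts. The start at 60220627, in chr11:60220578-60220877, had 37.9% and 28.7%, and the start at 60210471, in chr11:60210422-60210721, had 12.1% and 17.7%. All 3 are given 5′ to 3′ on the minus strand of the chromosome, and capitals mark CCAAT (or ATTGG on the other strand) and GGGCGG (or CCGCCC), the letters bound by NF-Y and by Sp1, factors known to act beside SREBP at lipogenic promoters.
Srebf1 start 60222581: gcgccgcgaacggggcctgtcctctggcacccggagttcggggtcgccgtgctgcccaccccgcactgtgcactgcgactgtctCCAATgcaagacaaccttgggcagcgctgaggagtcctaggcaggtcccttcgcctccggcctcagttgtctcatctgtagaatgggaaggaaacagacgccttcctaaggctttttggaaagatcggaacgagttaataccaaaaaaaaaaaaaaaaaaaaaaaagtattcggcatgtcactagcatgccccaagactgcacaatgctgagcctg
Srebf1 start 60220627: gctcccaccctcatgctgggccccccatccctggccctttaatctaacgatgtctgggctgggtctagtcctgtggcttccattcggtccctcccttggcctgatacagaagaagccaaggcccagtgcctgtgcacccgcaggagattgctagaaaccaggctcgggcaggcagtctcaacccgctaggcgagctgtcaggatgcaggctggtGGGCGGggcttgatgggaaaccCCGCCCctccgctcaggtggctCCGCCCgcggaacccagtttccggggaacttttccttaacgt
Srebf1 start 60210471: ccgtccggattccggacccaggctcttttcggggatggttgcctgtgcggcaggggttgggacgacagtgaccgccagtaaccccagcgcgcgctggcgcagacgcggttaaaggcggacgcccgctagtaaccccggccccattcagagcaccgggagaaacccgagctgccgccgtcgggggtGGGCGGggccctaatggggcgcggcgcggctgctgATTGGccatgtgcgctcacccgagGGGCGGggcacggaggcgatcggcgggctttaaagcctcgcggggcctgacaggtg
The window of the leading start held GGGCGG or its complement 3 times and no CCAAT, whereas the window of the start at 60210471 held CCAAT once, 30 bases upstream of the start, and GGGCGG 2 times.

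Gpam showed a main start and a minor one. Transcripts from the start at 55127238, in chr19:55127189-55127488, minus strand, held 95.8% of the gene's TPM in library 1 and 89.6% in library 2. Gpam-201 from the start at 55099477, in chr19:55099428-55099727, held 3.86% and 9.81%, from 170.71 and 441.71 counts. The second quantifier gave Gpam-201 1040 and 1100 counts and 19.3% and 20.1% of the TPM, so the amount and the spread of the minor start differed between quantifiers. Both windows are printed because they differ in base content, with 55.7% G and C at the main start and 68% at the minor one, beside a median of 52.7% over all 32851 windows.
Gpam start 55127238: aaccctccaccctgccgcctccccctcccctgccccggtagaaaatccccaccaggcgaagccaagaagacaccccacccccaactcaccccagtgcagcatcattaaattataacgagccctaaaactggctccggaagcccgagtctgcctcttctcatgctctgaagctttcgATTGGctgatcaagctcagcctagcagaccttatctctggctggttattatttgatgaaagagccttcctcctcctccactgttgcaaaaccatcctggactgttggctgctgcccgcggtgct
Gpam start 55099477: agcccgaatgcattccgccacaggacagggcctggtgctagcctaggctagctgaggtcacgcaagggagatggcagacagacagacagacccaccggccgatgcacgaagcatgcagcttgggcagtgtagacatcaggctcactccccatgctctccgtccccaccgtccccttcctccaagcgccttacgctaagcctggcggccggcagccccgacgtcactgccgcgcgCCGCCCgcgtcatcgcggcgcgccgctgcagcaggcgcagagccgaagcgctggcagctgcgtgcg
The main window held CCAAT once, on the other strand and 74 bases upstream of the start, and the minor window held CCGCCC once, 16 bases upstream.

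Me1 had 2 windows, and the first quantifier assigned reads to transcripts at 1 of them. The start at 86695914, in chr9:86695865-86696164, minus strand, held 88.3% and 90.8% of the TPM, and the start at 86687277 held 0% in both libraries. By the second quantifier the start at 86695914 held 68.8% and 72.7%, and the start at 86687277 held 0.196% and 0%. The window of the start in use is printed as that of the gene with the highest level of the 10.
Me1 start 86695914: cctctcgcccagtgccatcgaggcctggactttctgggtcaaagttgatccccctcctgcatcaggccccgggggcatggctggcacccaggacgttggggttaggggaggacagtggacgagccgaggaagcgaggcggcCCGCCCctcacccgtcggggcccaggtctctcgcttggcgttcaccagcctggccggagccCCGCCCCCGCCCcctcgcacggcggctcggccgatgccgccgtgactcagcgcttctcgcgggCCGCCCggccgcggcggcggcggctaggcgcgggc
It held CCGCCC 4 times, 3 of them upstream of the start, with 74.7% G and C. For Acacb, the only window lay at the start of Acacb-201, which the first quantifier listed at 0 TPM in both libraries and the second at 5.9 and 8.25 TPM. The leading Acacb-202 starts at 114146535, for which no window was used here.

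The Fasn window, in chr11:120824498-120824797, minus strand, is printed because Fasn was 1 of the 2 genes that stood apart between the libraries. Its start at 120824547 is that of Fasn-201, while the leading Fasn-205 starts at 120824095, inside the gene.
Fasn start 120824547: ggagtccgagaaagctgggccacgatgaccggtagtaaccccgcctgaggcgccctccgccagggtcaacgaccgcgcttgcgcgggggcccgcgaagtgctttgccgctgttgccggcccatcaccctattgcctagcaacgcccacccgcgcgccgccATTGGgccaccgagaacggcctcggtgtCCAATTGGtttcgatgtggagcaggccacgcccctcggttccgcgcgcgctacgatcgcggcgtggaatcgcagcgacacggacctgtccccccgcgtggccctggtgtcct
It held CCAAT on either strand 3 times, at 90, 62 and 59 bases upstream of the start, of which the last pair overlap in the run CCAATTGG. The 12 windows came from 8 of the 10 genes, with several for Srebf1, Gpam and Me1. CCAAT or its complement was found in 8 windows, against 37.4% of all 32851 windows, and GGGCGG or its complement in 5, against 35.7%. The windows with CCAAT include those of Acacb-201 and Me1-202, at 0 TPM in both libraries by the first quantifier. They also include that of Srebf1-204, with 12.56 and 29.83 counts. TATAAA was found in 1, that of Acacb-201, against 13.6%. CACGTG, an E-box bound by USF and ChREBP, and TCACNCCAC, a sterol element bound by SREBP, were found in 0 of 12, on either strand, against 7.15% and 1.24% of all windows. A match is a run of letters and not a bound site, and no match says only that the letters are not in this window.

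Between the libraries, 9 of the 10 genes had the lower scaled count in library 1, beside 50.2% of all 10483 genes tested. Counts were scaled by TMM, which sets the bulk of genes equal, and genes with a mean TPM of at least 1 and at least 100 counts over both libraries were tested. For the 10 genes the log2 ratio, coded as library 1 over library 2, had a median of -0.16, beside a median of -0.00 over all genes and a central 95% of genes from -0.45 to 0.54. The ratio lay beyond 1.5-fold for 2 of the 10, Scd1 and Fasn, both lower in library 1. Over all genes tested, 346 of 10483 (3.3%) lay beyond 1.5-fold in either direction and 122 (1.16%) were lower in library 1. These ratios compare 2 libraries of the same group, and the 95% Clopper-Pearson intervals given with them cover counting error only.

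Scd1 had a log2 ratio of -0.78 (interval -0.92 to -0.64), a 1.71-fold difference as library 2 over library 1, and 1.62% of all genes tested were as far apart or farther. Fasn had a log2 ratio of -0.72 (-0.86 to -0.58), 1.65-fold as library 2 over library 1, and 2% of all genes were as far apart. On the scale of deposited TPM, where the median of all genes lay at -0.17, the log2 ratios were -1.26 for Scd1 and -1.05 for Fasn. The difference of Fasn lay mainly in Fasn-205, with 312.94 counts in library 1 and 711.38 in library 2, while Fasn-201 had 369.21 and 378.59. The retained-intron transcripts Fasn-203 and Fasn-202 had 11.63 and 12.7 counts and 4.22 and 18.33 counts, yet 14.1% and 8.49% and 6.73% and 16.2% of the gene's TPM. The second quantifier gave Fasn-205 517 and 892 counts and Fasn-201 235 and 309, so both transcripts were lower in library 1 there. Scd1-201 had 738 counts in library 1 and 1200 in library 2 by the second quantifier.

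Dgat2 had the next largest difference of the 10, with a log2 ratio of -0.31 (-0.44 to -0.18), and 13.9% of all genes were as far apart. Me1 had a ratio of -0.16 (-0.21 to -0.11), and its interval and those of Scd1, Fasn and Dgat2 lay below 0. Acacb was the gene with an interval above 0, at 0.16 (0.12 to 0.19). On the scale of deposited TPM, where the median of all genes is -0.17, it stood at -0.03. For Acly, Thrsp, Acaca, Srebf1 and Gpam the interval held 0, with ratios from -0.19 to -0.01. Gpam, at -0.01 (-0.05 to 0.04), was among the genes closest between libraries, with 96.9% of all genes as far apart or farther. Intervals that excluded 0 were found for 30.9% of all genes tested.

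**Figure D4:**
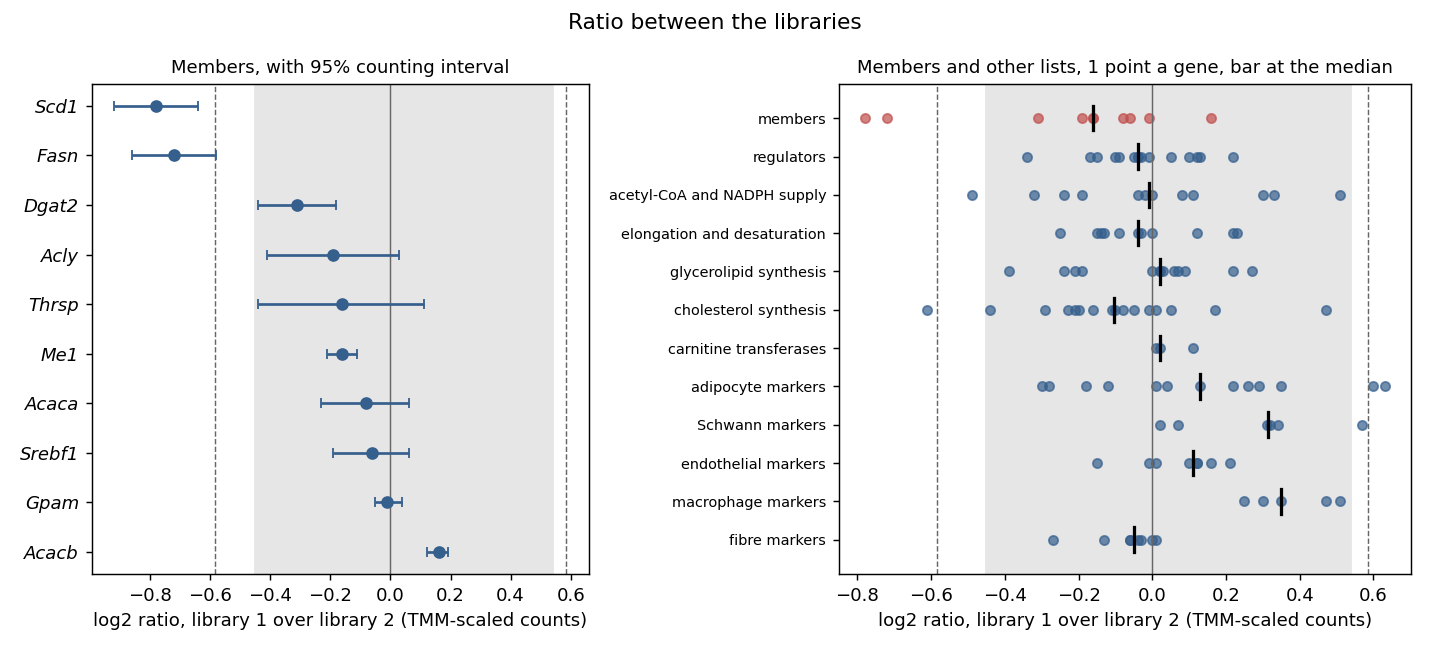
Log2 ratio of library 1 over library 2 for each of the 10 genes with its 95% counting interval (left), and for single genes of the other lists with a bar at each median (right). The grey band spans the central 95% of all genes tested, -0.45 to 0.54, and dashed lines mark 1.5-fold; Scd1 and Fasn lie left of the band, and the other 8 genes lie inside it.

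Several neighbouring pathways had no tested gene beyond 1.5-fold, beside 3.3% of all genes tested. None of the 15 other regulators, 12 tested genes of acetyl-CoA and NADPH supply, 11 of elongation and desaturation, 13 of glycerolipid synthesis and 3 carnitine palmitoyltransferases lay beyond 1.5-fold in either direction. Their median log2 ratios were -0.04, -0.01, -0.04, 0.02 and 0.02. Lpin3, a paralog of Lpin1 with a mean TPM under the minimum for testing, had 54 counts in library 1 and 84 in library 2, at -0.67 (-1.19 to -0.16). Of the 16 cholesterol synthesis genes tested, 12 had a ratio below 0, with a median of -0.11. Mid1ip1 had a ratio of -0.49 (-0.64 to -0.34) and Mlycd one of 0.51 (0.43 to 0.60). Scd2 had -0.15 (-0.35 to 0.05), an interval that does not overlap that of Scd1.

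Fat cells also carry lipogenic RNA, and the ratios of their markers lay on both sides of 0. Of 13 fat cell markers tested, 4 were lower in library 1 and the median ratio was 0.13. That median includes genes also made by muscle, such as Lpl and Pnpla2. Retn had a ratio of -0.30 (-0.75 to 0.15), Cidec one of 0.26 (0.03 to 0.49) and Cfd one of 0.29 (0.20 to 0.38). Adipoq, adiponectin of fat cells, had 249 counts in library 1 and 264 in library 2 and a ratio of -0.12 (-0.37 to 0.14). Plin1, which coats the droplet of fat cells, had 363 and 352 counts and a ratio of 0.01 (-0.20 to 0.23). Fabp4 had 1558 and 1725 counts, at -0.18 (-0.28 to -0.08), and Lep, leptin, had 50 and 84, at -0.78 (-1.32 to -0.26). The mean TPM of Lep was under the minimum for testing, and its ratio lay on the side of Scd1 and Fasn. The tested markers beyond 1.5-fold were higher in library 1: Pck1 at 0.63 (0.45 to 0.81) and Pnpla2 at 0.60 (0.55 to 0.65). No marker of the list was at 0 in both libraries. In CPM, a count scaled to library size, the whole list came to 1980 in library 1 and to 1870 in library 2, most of it from Car3, Plin4, Lpl and Pnpla2, so the sum says little about fat cells. The level of Fasn was 0.382 times that of Adipoq in library 1 and 0.645 times in library 2. How much of any of the 10 levels came from fat cells was not tested. The liver markers Alb, Tat and Serpina1c, with counts in library 1 and 0 in library 2, lay in the library where Scd1 and Fasn were lower. Whether RNA from liver was part of the 10 levels was not tested. Of the keratins of skin, Krt5 had 1 and 0 counts and Krt14 had 0 in both, while Krt10 had 24 counts in library 1 and 11 in library 2, or 1.33 and 0.76 TPM. Macrophage and Schwann cell markers had medians of 0.35 and 0.31, and their part in the ratios was not tested.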

How the data were processed

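Total RNA from gastrocnemius was sequenced as 2 libraries of 1 group, each from 300 ng of RNA with ERCC spike-ins and a directional kit, per the labels. Per the deposited read-me and the labels, reads were assigned to mm10 with the GENCODE M21 annotation. The programs were not given in the sources. The authors deposited, per the file headers, expected counts and TPM per gene and transcript (the first quantifier), the percent of gene TPM held by each transcript, and in a further table estimated counts and TPM per transcript (the second quantifier). Expected counts share out reads that match several genes, so reads common to Scd1 and its paralogs are split by the model. CAST reads were assigned against the mm10 reference, and its effect on single genes was not tested.

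Levels are the deposited gene TPM of the first quantifier. The second quantifier's TPM was summed per gene over its 55450 genes. Shares of a family or gene were computed from TPM within each library. Ratios of library 1 over library 2 used expected counts, rounded, with TMM scaling (edgeR 4.0.16, R 4.3.3) over 11577 genes with at least 1 CPM in both libraries, with Clopper-Pearson intervals from SciPy 1.17.1. The ratio script was tested on simulated data. With 2 libraries of 1 group, no test and no p was computed. Spike-ins (96) and 26248 numeric entries, with 1 and 0 expected counts in all, were left out of gene levels. A gene with 0 counts could be present at up to 3 counts, or 0.0847 CPM in library 1 and 0.0873 CPM in library 2. Alternatives were DESeq2 1.42.0 size factors, spike-in scaling, deposited TPM, the second quantifier, no low-count filter, expected counts in place of TPM, other thresholds, each library alone, and 2 added after seeing the data: leading transcripts only, and ratios less the median of all genes. Promoter windows, motif letters and starts came from RefSeq (GRCm38.p6) and GENCODE M21; motif positions are counted from the start base.

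The 10 genes and all lists were chosen with earlier results of these data known. Named from the other lists are the 4 genes of highest mean TPM, all family members, and genes beyond 1.5-fold with at least 100 summed counts. A gene of the cholesterol list that the rule names is not reported here. Adipoq, Plin1, Cfd, Fabp4, Retn, Cidec, G6pdx, Pgd, Slc25a1, Gk, Elovl6, Tat, Serpina1c and Krt14 fall outside that rule and were named after their values were seen.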

Additional observations from a re-analysis of the deposited data

How the results depend on the processing

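All 10 genes stayed detected at TPM of at least 0.5, by the second quantifier and in either library alone; 7 of them had a TPM of at least 5 in both. With expected counts in place of TPM, the family shares were 95.5% for Acacb, 76.4% for Me1, 23.4% for Thrsp, 80.3% for Gpam and 68.1% for Srebf1. With leading transcripts only, chosen after seeing the data, they were 96.2%, 76.9%, 40.1%, 80.7% and 64.9%. The second quantifier gave 64.4% for Me1 and 63.2% for Gpam. The shares of Scd1 and Dgat2 moved by less than 1 SD under each of these settings. In single libraries the shares ranged from 91.3% to 92.3% for Acacb, 63.6% to 77.5% for Scd1, 60% to 61.8% for Me1, 28.3% to 33.4% for Thrsp, 73.7% to 81.1% for Dgat2, 67% to 70.5% for Gpam and 75.5% to 79.3% for Srebf1. The median log2 ratio was -0.38 on deposited TPM and -0.21 after subtracting the median of all genes; under the other scalings it lay between -0.17 and -0.10. Scd1 and Fasn lay beyond 1.5-fold under every scaling run. With TMM 0 of the 10 lay beyond 2-fold. On deposited TPM Scd1 and Fasn both did, at -1.26 and -1.05, before subtracting the median of all genes, -0.17 on that scale. After that subtraction Scd1 still lay beyond 2-fold and Fasn did not. The value of Scd1 includes the short Scd1-202, with 0 counts in library 1 and 13.24 in library 2. Of the 10 single ratios, 8 moved beyond counting error on deposited TPM and 3 with spike-ins, moves that include a shift common to all genes (medians -0.17 and 0.06). Relative to nuclear protein-coding TPM all 10 levels were higher, Me1 for example at 183, because rescaling to a smaller total raises every gene of that class. No paired analysis was possible because there is 1 group. Depth limits Thrsp and Acly most, and with n = 2 each SD has 1 degree of freedom.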
